A study of Homo sapiens with 36 samples.

Results

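The nonsense-mediated decay genes UPF1, UPF2, UPF3B, SMG1, SMG5, SMG6, SMG8 and SMG9 were examined for RNA crosslinked to SCAF4 and SCAF8 by PAR-CLIP, in which cells take up 4-thiouridine (4SU), ultraviolet light links proteins to the labelled RNA, and crosslinked positions are read as T-to-C conversions. A cluster, a stretch of reads that carries such conversions, was counted for a gene when its midpoint lay on the gene's strand within its body in GENCODE 44 on GRCh38. By this rule 429 of the 278185 clusters in all 18 lists fell in the 8 members, which are 8 of 20046 protein-coding genes. All samples came from Flp-In T-REx HEK293 cells, an established human embryonic kidney line. A derived line carried doxycycline-inducible FLAG-SCAF4, another carried doxycycline-inducible FLAG-SCAF8, and the parental line carried no tagged protein. Each was given 100 µM 4SU overnight and a 2 h pulse of 500 µM 4SU, and was irradiated at 365 nm with 2000 J/m2. The tagged lines were also given 100 ng/mL doxycycline overnight per the sample labels, while the study's methods give another dose and include the parental cells. RNA from FLAG immunoprecipitation (IP) and from input was sequenced in 3 replicates per line, and the soluble and chromatin fractions of a replicate were joined by the authors before clusters were called. The groups were SCAF4 IP, SCAF8 IP, control IP (FLAG IP from the parental line), SCAF4 input, SCAF8 input and control input, with 3 lists each. The tagged proteins were expressed from transgenes in addition to the cells' own genes, and p-values measure the spread between these lists, from replicates that the study calls biological. Input was taken from the extract before the IP, so an IP and an input list of a line with the same replicate number share an extract.

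Nonsense-mediated decay degrades mRNAs on which translation stops too early. The helicase UPF1 binds the mRNA, and UPF2 and UPF3B join it to the exon junction complex left by splicing. The kinase SMG1, bound by its partners SMG8 and SMG9, phosphorylates UPF1, after which SMG6 cuts the mRNA and SMG5 brings in further decay factors. SCAF4 and SCAF8 bind the tail of RNA polymerase II and the RNA being made. The study asked where they bind on transcripts, because it followed early cleavage and polyadenylation in cells without them, and it displayed the UPF1 locus to show its mapped cleavage sites.

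The lists differed in length, and their sequencing depth is unknown. The 6 SCAF4 and SCAF8 IP lists held 18287 to 54404 clusters, the 9 input lists 4567 to 12493 and the 3 control IP lists 1621 to 9638, so that 1 cluster in the shortest list equals 6.17 per 10000. Clusters in the SCAF4 gene numbered 16 to 17 in the SCAF4 input lists and 1 to 7 in the other inputs, and clusters in the SCAF8 gene 18 to 20 in the SCAF8 input lists and 1 to 10 in the others, so each gene was highest in the inputs of its own line. No list had a cluster on the opposite strand of any member.

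The RNA below lies around the middle of sites that recurred in the SCAF4 and SCAF8 IP lists. A site is the union of same-strand clusters, from all 18 lists, that overlap by at least 1 nt, and each sequence is the 100 nt around a site's midpoint, from GRCh38, 5′ to 3′ on the transcribed strand. Capitals mark 3 groups of motifs. The first is CGG or CGA. The second is CCAGC or CCAGG, together with GCAGC or GCAGG. The third is CTCC or CACC. These motifs match ones that the study reports as overrepresented at binding sites from the same experiments. The exon 2 site of UPF1 was in all 9 IP lists and in 6 of 9 inputs. Its exon 6 site, the UPF2 exon 2 site and the SMG1 exon 25 site were in SCAF4 and SCAF8 IP lists and in no input or control IP list. The SMG1 exon 25 site has copies in SMG1 pseudogenes, with up to 100% identity, so its clusters cannot be assigned to SMG1 alone. The SMG5 and SMG6 windows lie in long coding exons, at sites that were in all 6 of these lists and also in 6 inputs and 1 input, respectively. The SMG9 window is intronic. Both UPF1 windows reach into intron. Exon 2 starts at chr19:18845980, so the marked GCAGG of that window lies across the 3′ splice site. Exon 6 ends at chr19:18852296, so the marked CCAGG of that window lies across the 5′ splice site.
UPF1 exon 2, chr19:18845970-18846069, plus strand: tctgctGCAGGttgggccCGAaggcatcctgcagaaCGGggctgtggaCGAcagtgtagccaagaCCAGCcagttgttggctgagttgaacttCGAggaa
UPF1 exon 6, chr19:18852202-18852301, plus strand: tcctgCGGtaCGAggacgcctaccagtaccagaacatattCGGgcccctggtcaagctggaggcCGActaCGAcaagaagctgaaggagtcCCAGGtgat
UPF2 exon 2, chr10:12035219-12035318, minus strand: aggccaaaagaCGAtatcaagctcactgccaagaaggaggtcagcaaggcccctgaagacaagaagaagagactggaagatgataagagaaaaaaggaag
SMG1 exon 25, chr16:18863701-18863800, minus strand: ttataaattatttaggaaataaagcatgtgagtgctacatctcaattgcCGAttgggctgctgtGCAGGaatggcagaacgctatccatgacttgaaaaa
SMG5 exon 12, chr1:156266025-156266124, minus strand: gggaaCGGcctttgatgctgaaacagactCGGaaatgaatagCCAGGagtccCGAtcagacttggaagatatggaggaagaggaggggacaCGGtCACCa
SMG6 exon 2, chr17:2300321-2300420, minus strand: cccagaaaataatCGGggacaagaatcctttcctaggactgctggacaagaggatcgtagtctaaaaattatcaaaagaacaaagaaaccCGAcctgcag
SMG9 intron, chr19:43736430-43736529, minus strand: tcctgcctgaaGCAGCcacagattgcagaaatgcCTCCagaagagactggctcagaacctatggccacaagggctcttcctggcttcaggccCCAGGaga
The UPF1 windows held 4 and 5 copies of CGG or CGA, and the UPF2 window held 1. The number of T, the base replaced by 4SU, was 20 and 16 in the UPF1 windows, 28 in the SMG1 window and only 9 in the UPF2 window.

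UPF1, the central helicase (chr19:18831959-18868230, plus strand, 36.3 kb), had 57 clusters in the 6 SCAF4 and SCAF8 IP lists, 5 in the 3 control IP lists and 7 in the 9 inputs. The SCAF4 IP lists held 3, 20 and 11 clusters in replicates 1, 2 and 3, and the SCAF8 IP lists 2, 7 and 14. The control IP lists held 3, 1 and 1, and no input list held more than 2. Per 10000 clusters of the list, the SCAF4 IP values were 1.58, 3.68 and 3.24 and the SCAF8 IP values 0.794, 3.83 and 3.37. The 6 inputs of the tagged lines lay between 0 and 2.09, so the groups overlapped, with replicate 1 of each line lowest among the IP lists. The control IP values were 3.11, 4.32 and 6.17, from 3, 1 and 1 clusters, and their mean of 4.53 ± 1.54 (SD, n = 3) was above the 2.75 ± 1.25 (SD, n = 6) of the SCAF4 and SCAF8 IP lists.

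The partners that join UPF1 to the exon junction complex had fewer clusters. UPF2 (chr10:11920022-12043170, minus strand, 123149 nt) had 2, 6 and 3 in SCAF4 IP and 3 in each SCAF8 IP list. It had 0 in all control IP lists, 0 in all SCAF4 inputs, 1, 1 and 0 in SCAF8 inputs and 1, 0 and 0 in control inputs. All 6 SCAF4 and SCAF8 IP lists therefore lay above the control IP lists. UPF3B (chrX:119834022-119852998, minus strand, 19.0 kb) had 2, 3 and 2 clusters in SCAF4 IP and 1, 0 and 3 in SCAF8 IP. Control IP had 2, 0 and 0, and no input had more than 1, so no group stood apart.

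SMG1, the kinase (chr16:18804860-18926408, minus strand, 122 kb), had the most clusters of the 8 genes. The SCAF4 IP lists held 15, 30 and 23 and the SCAF8 IP lists 13, 12 and 17. Control IP held 5, 0 and 1, the SCAF4 inputs 7, 1 and 1, the SCAF8 inputs 7, 4 and 1, and the control inputs 3, 0 and 1. In number every SCAF4 and SCAF8 IP list exceeded every input and control IP list, but per 10000 the ranges overlapped (4.10 to 7.90 in SCAF4 and SCAF8 IP, 0 to 7.65 in the inputs).

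Its partners had few. SMG8 (chr17:59209400-59215239, plus strand, 5.84 kb) had 0, 3 and 2 clusters in SCAF4 IP, 0, 0 and 1 in SCAF8 IP and 0, 1 and 1 in SCAF8 inputs, and 0 in every other list. SMG9 (chr19:43727983-43754962, minus strand, 26980 nt) had 0, 10 and 9 in SCAF4 IP and 2, 3 and 7 in SCAF8 IP. Control IP held 1, 0 and 0, the SCAF4 inputs 0, the SCAF8 inputs 1 each and the control inputs 1, 0 and 1. The 10 and 9 clusters in SMG9 stand beside none in replicate 1 of the same group.

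SMG5, which brings in decay factors (chr1:156249224-156282825, minus strand, 33.6 kb), had 9, 24 and 15 clusters in SCAF4 IP and 4, 10 and 14 in SCAF8 IP. Control IP held 3, 0 and 0, the SCAF4 inputs 5, 2 and 4, the SCAF8 inputs 1, 3 and 2 and the control inputs 3, 2 and 1. Input clusters were thus common in SMG5. SMG6, the endonuclease (chr17:2059839-2303785, minus strand, 244 kb), had 4, 5 and 5 in SCAF4 IP and 2, 2 and 3 in SCAF8 IP. Control IP held 3, 0 and 1, and 5 of the 9 inputs held 1 or 2.

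**Figure D1:**
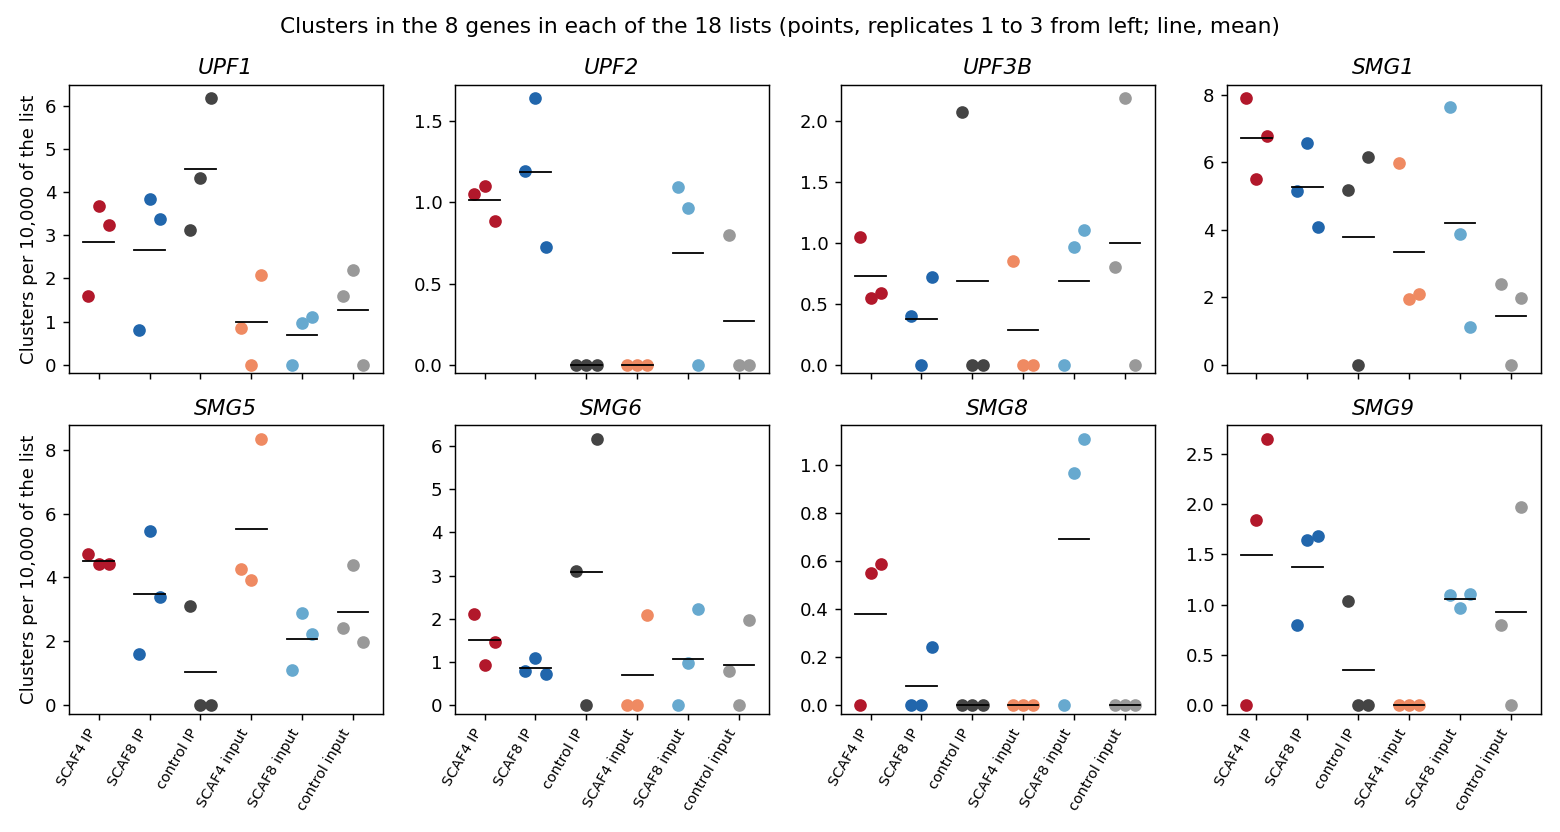
Clusters in each member per 10000 clusters of the list, for each of the 18 lists; points are replicates 1 to 3 from left to right in each group, the line is the group mean, and each panel has its own axis from 0. The 6 SCAF4 and SCAF8 IP points of UPF2 lie at 0.723 to 1.64 with all control IP points at 0, while the control IP points of UPF1 lie at 3.11 to 6.17.

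The question of whether SCAF4 and SCAF8 IP recovered more of these genes than input was tested per gene, on log2(clusters per 10000 + 1), by a two-sided exact permutation test over 924 splits of the 6 IP and 6 own input lists, with Benjamini-Hochberg adjustment over 7566 protein-coding genes. None of the 8 members had an adjusted p below 0.05, where 5.95% of all genes tested were called higher and 3.57% lower. At an unadjusted p below 0.05, 2 of the 8 were higher, UPF1 and UPF2, against 21.7% of all genes. UPF1 was 1.06 ± 0.35 (SE) higher on the log2 scale (adjusted p = 0.0838, exact permutation test). UPF2 was 0.72 ± 0.23 (SE) higher (adjusted p = 0.106, exact permutation test). The differences were 0.71 ± 0.34 for SMG1, 0.65 ± 0.36 for SMG9 and 0.38 ± 0.36 for SMG6. They were 0.16 ± 0.35 for SMG5, 0.11 ± 0.26 for UPF3B and -0.07 ± 0.25 for SMG8. The median over the members was 0.52 and over all genes 0.26. With IP and input paired by extract, none of the 7566 genes was called. The smallest adjusted p was 0.197 by the exact permutation test over sign changes of 6 pairs, whose smallest unadjusted p is 0.03125.

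The plain number of clusters gave another result, and the IP lists were longer than the inputs. On log2(number + 1), 5 of the 8 members were called, UPF1, UPF2, SMG1, SMG5 and SMG6, where 39.6% of all genes were called higher and none lower. UPF1 was then 2.41 ± 0.50 (SE) higher on the log2 scale with an adjusted p of 0.0164 by the exact permutation test, and the same adjusted p was found for UPF2 (1.73 ± 0.27) and SMG1 (2.32 ± 0.45). For SMG5 and SMG6 the differences were 1.76 ± 0.40 and 1.51 ± 0.34 (adjusted p = 0.0289 each, exact permutation test). Paired by extract, none of these 5 passed, each with an adjusted p of 0.128 (exact permutation test over sign changes), and no gene was called. Library depth and binding cannot be told apart in the number.

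Taken by line, the SCAF4 IP lists lay above the SCAF4 inputs only for UPF2 among the 6 members tested, per 10000 clusters, where 36.4% of all genes did so. For UPF2 the result was fixed by the filter on either scale. All 3 SCAF4 inputs held 0 UPF2 clusters, so the gene could be tested only with a cluster in all 3 SCAF4 IP lists. The SCAF4 inputs were short, at 4793 to 11715 clusters, so 0 there does not show a lower level. The SCAF8 IP lists lay above the SCAF8 inputs for 0 of the 8 members, where 19.9% of all genes did so. In plain number all 6 members tested were higher in every SCAF4 IP list than in every SCAF4 input (58.2% of all genes), and UPF1, UPF2, SMG1, SMG5 and SMG9 were higher in every SCAF8 IP list than in every SCAF8 input (38.5% of all genes). With 3 lists against 3 no exact permutation test can go below p = 0.1. UPF1 differed from input by 1.05 ± 0.54 (SE) for SCAF4 and by 1.06 ± 0.57 for SCAF8.

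Against control IP, the measure of what the FLAG antibody recovers without a tagged protein, the exact permutation test over 84 splits called 0 of 7388 genes, with a smallest adjusted p of 0.0741 and 1892 genes at an unadjusted p below 0.05. Per 10000 clusters, all 6 SCAF4 and SCAF8 IP lists lay above all 3 control IP lists for 1 of 8 members, UPF2, where 14.9% of all genes did so. UPF2 was 1.06 ± 0.09 (SE) higher on the log2 scale (p = 0.0119, the smallest that the exact test can give), with no spread on the control side because all 3 control IP lists held 0. At the mean SCAF4 and SCAF8 IP level of UPF2, those lists would hold 1.06, 0.254 and 0.178 clusters, so a lower level in control IP was not detectable at their length. SMG5 was 1.58 ± 0.71 higher (p = 0.0238, exact permutation test, adjusted p = 0.118). UPF1 was 0.61 ± 0.33 lower and SMG6 0.53 ± 0.86 lower, neither beyond the spread between lists (adjusted p = 0.298 and 0.488, exact permutation test). Both directions turned in plain number, where UPF1 was 1.74 and SMG6 1.11 higher, and UPF1 was also 0.33 higher among clusters at or above the median score and SMG6 0.10 higher without replicate 3, none of them called. In plain number, UPF2, SMG1 and SMG5 were higher in all 6 lists than in all 3 control IP lists, where 27.7% of all genes were.

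The SCAF4 IP and SCAF8 IP lists overlapped for all 8 members per 10000 clusters. Of the 7322 genes tested, 10.4% had all SCAF4 IP lists above all SCAF8 IP lists and 5.93% had all of them below. UPF1 differed by 0.14 ± 0.53 (SE), UPF2 by -0.10 ± 0.18 and SMG1 by 0.31 ± 0.21, SCAF4 IP minus SCAF8 IP on the log2 scale. SMG5 and SMG6 differed by 0.40 ± 0.38 and 0.40 ± 0.22. These errors leave room for differences of either sign in UPF1 and UPF2.

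The genes have different lengths, so their levels were also set per kb of exon of the Ensembl canonical isoform, counting exonic clusters only. In clusters per 10000 per kb of exon, the median of the 6 SCAF4 and SCAF8 IP lists was 0.855 for SMG5, 0.468 for UPF1 and 0.365 for SMG1. It was 0.243 for UPF3B, 0.168 for SMG6, 0.162 for UPF2, 0.116 for SMG9 and 0.0374 for SMG8. The ranges of every pair of neighbours in this order overlapped, for example 0.348 to 1.08 for SMG5 and 0.149 to 0.553 for UPF1. The input medians were 0.635 for SMG5, 0.181 for UPF1 and 0.130 for SMG1 on the same scale, and 0.342 for UPF3B, above its IP median.

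Along UPF1 the SCAF4 and SCAF8 IP clusters formed 23 sites, of which 19 had no cluster in any input or control IP list. They overlapped 16 of the 24 exons of the canonical isoform, where input clusters overlapped exons 2 and 3 and control IP clusters exons 2, 11 and 24. These exon counts come from 57 SCAF4 and SCAF8 IP clusters, 7 input clusters and 5 control IP clusters. Fewer clusters can overlap fewer exons, and the counts were not compared at equal cluster number. The exon 2 site (chr19:18845909-18846130) was 222 nt long, held the whole 140 nt exon with both of its splice sites and some intron on each side, and was in all 6 SCAF4 and SCAF8 IP, all 3 control IP and 6 of 9 input lists. The exon 3 site (chr19:18847683-18847898) was in 3 SCAF4 IP, 2 SCAF8 IP and 0 control IP lists and in 1 input. The exon 6 site (chr19:18852009-18852495) was in 2 SCAF4 IP and 2 SCAF8 IP lists and in no other.

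Further UPF1 sites ran through the middle of the gene. The exon 5 site (chr19:18850696-18850899), the exon 10 site (chr19:18854875-18855015) and the 440 nt site at exon 12 (chr19:18855869-18856308) were each in 2 SCAF4 IP lists and 1 SCAF8 IP list. The site at exon 12 spanned 4 splice sites. The exon 11 site (chr19:18855055-18855228) was in 3 SCAF4 IP and 2 SCAF8 IP lists and in 1 control IP list. Near the 3′ end, a site over the last 3′ splice site (chr19:18866518-18866675) was in 2 SCAF4 IP, 3 SCAF8 IP and 1 control IP list. Of the 23 sites, 13 spanned a splice site, 6 of them both a 5′ and a 3′ splice site, and 8 had their midpoint in an intron. A site counted as spanning a splice site however few nt it reached past the exon edge. The exon 4 site, for example, ends at chr19:18850244 and exon 4 at chr19:18850242. Whether such short overhangs come from unspliced RNA was not tested.

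Replicate 2 of SCAF4 IP, the longest list, had the most UPF1 sites, and replicate 1 of each line the fewest. SCAF4 IP replicate 1 and SCAF8 IP replicate 1 shared only the exon 2 site. Between exons 4 and 23, 1 site, at exon 11, had a cluster in any list other than replicates 2 and 3 of SCAF4 IP and SCAF8 IP.

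**Figure D2:**
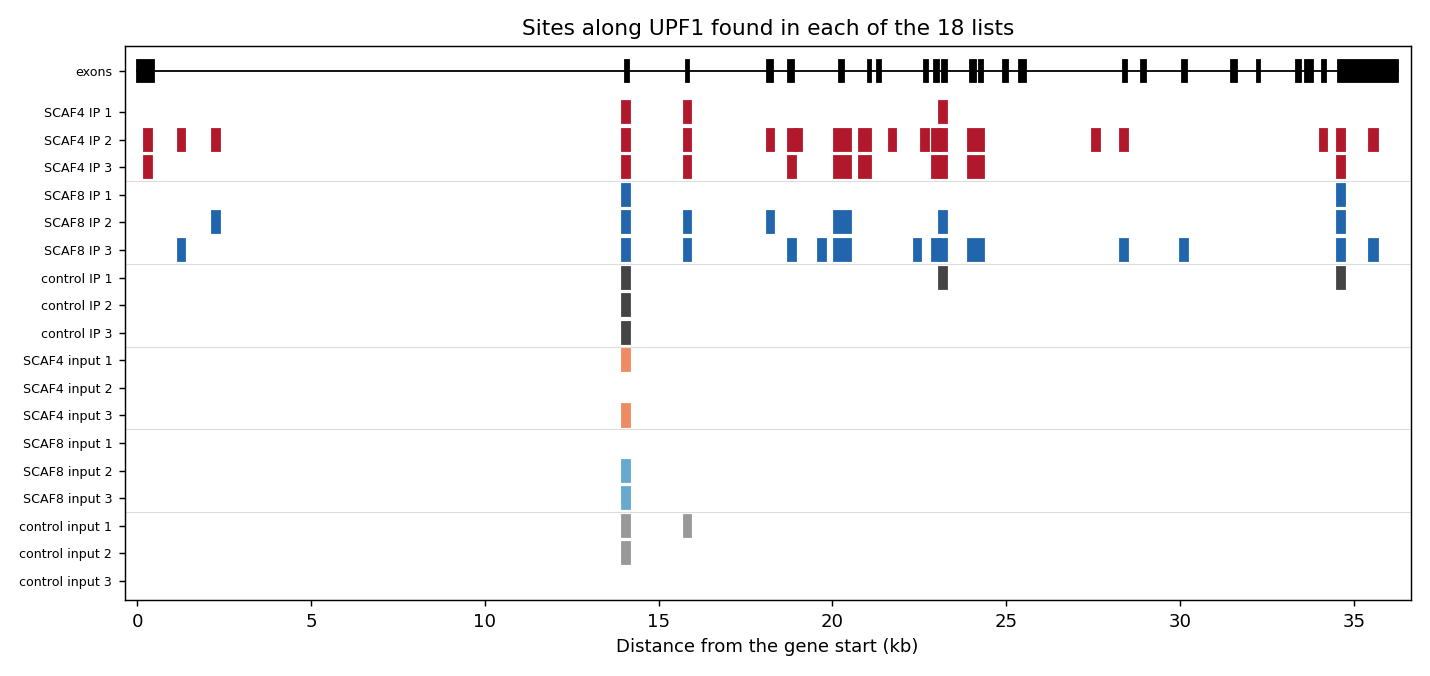
Merged sites along UPF1, with the distance from the gene start in kb on the horizontal axis and 1 row for each of the 18 lists; a block marks a site that holds a cluster of that list, and the black boxes are exons of the canonical isoform, both drawn at a minimum width. The exon 2 site recurs in all IP lists and 6 inputs, while most sites downstream of exon 3 are in replicates 2 and 3 of SCAF4 and SCAF8 IP.

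UPF2 had 9 sites, 7 of them with no input or control IP cluster. The exon 2 site (chr10:12035114-12035424) and a site in exon 3 (chr10:12028753-12029085) were each in 2 SCAF4 IP and 2 SCAF8 IP lists and in no other list. A site in the 3′ UTR (chr10:11920238-11920330) was in all 3 SCAF8 IP lists, no SCAF4 IP list and 2 inputs. The UPF3B sites lay over exons 9, 10 and 11 only. Its 3′ UTR site (chrX:119834345-119834614) was in 3 SCAF4 IP and 2 SCAF8 IP lists, but also in 1 control IP list and 5 inputs.

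SMG1 had 35 sites with a SCAF4 or SCAF8 IP cluster, the most of the 8 genes, and only 2 of them were intronic by midpoint. Its clusters overlapped 29 of 63 exons in SCAF4 and SCAF8 IP, 9 in the inputs and 5 in control IP. These counts come from 110, 25 and 6 clusters, so they were not compared at equal cluster number. The exon 25 site (chr16:18863649-18863853) and the exon 48 site (chr16:18835926-18836087) were in all 6 SCAF4 and SCAF8 IP lists and in no other. The exon 40 site (chr16:18842211-18842411) was in the same 6 lists and in 1 input. A site in exon 31 (chr16:18853654-18853851) was in all 3 SCAF4 IP lists and no other. The exon 58 site (chr16:18816295-18816526) was the one most shared with background, in all 6 SCAF4 and SCAF8 IP, 2 control IP and 7 input lists.

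SMG6 was unlike the other long genes in where its clusters lay. All 21 SCAF4 and SCAF8 IP clusters lay within 5856 nt of the gene start, the first 2.40% of the gene body, in exons 1, 2 and 3. These exons hold 2.56%, 29.4% and 3.23% of the summed exon length of the canonical isoform, and its other 16 exons had no cluster in any list. The exon 2 site at chr17:2300118-2300623 was in all 6 SCAF4 and SCAF8 IP lists and 1 input, and another in the same exon (chr17:2299605-2299953) in those 6 lists, 2 control IP lists and 5 inputs. A site over exon 1 and its 5′ splice site (chr17:2303631-2303779) was in 3 SCAF4 IP lists, 1 SCAF8 IP list and no other. The 6 input clusters lay in exon 2 too, so the position near the start was shared with the inputs.

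**Figure D3:**
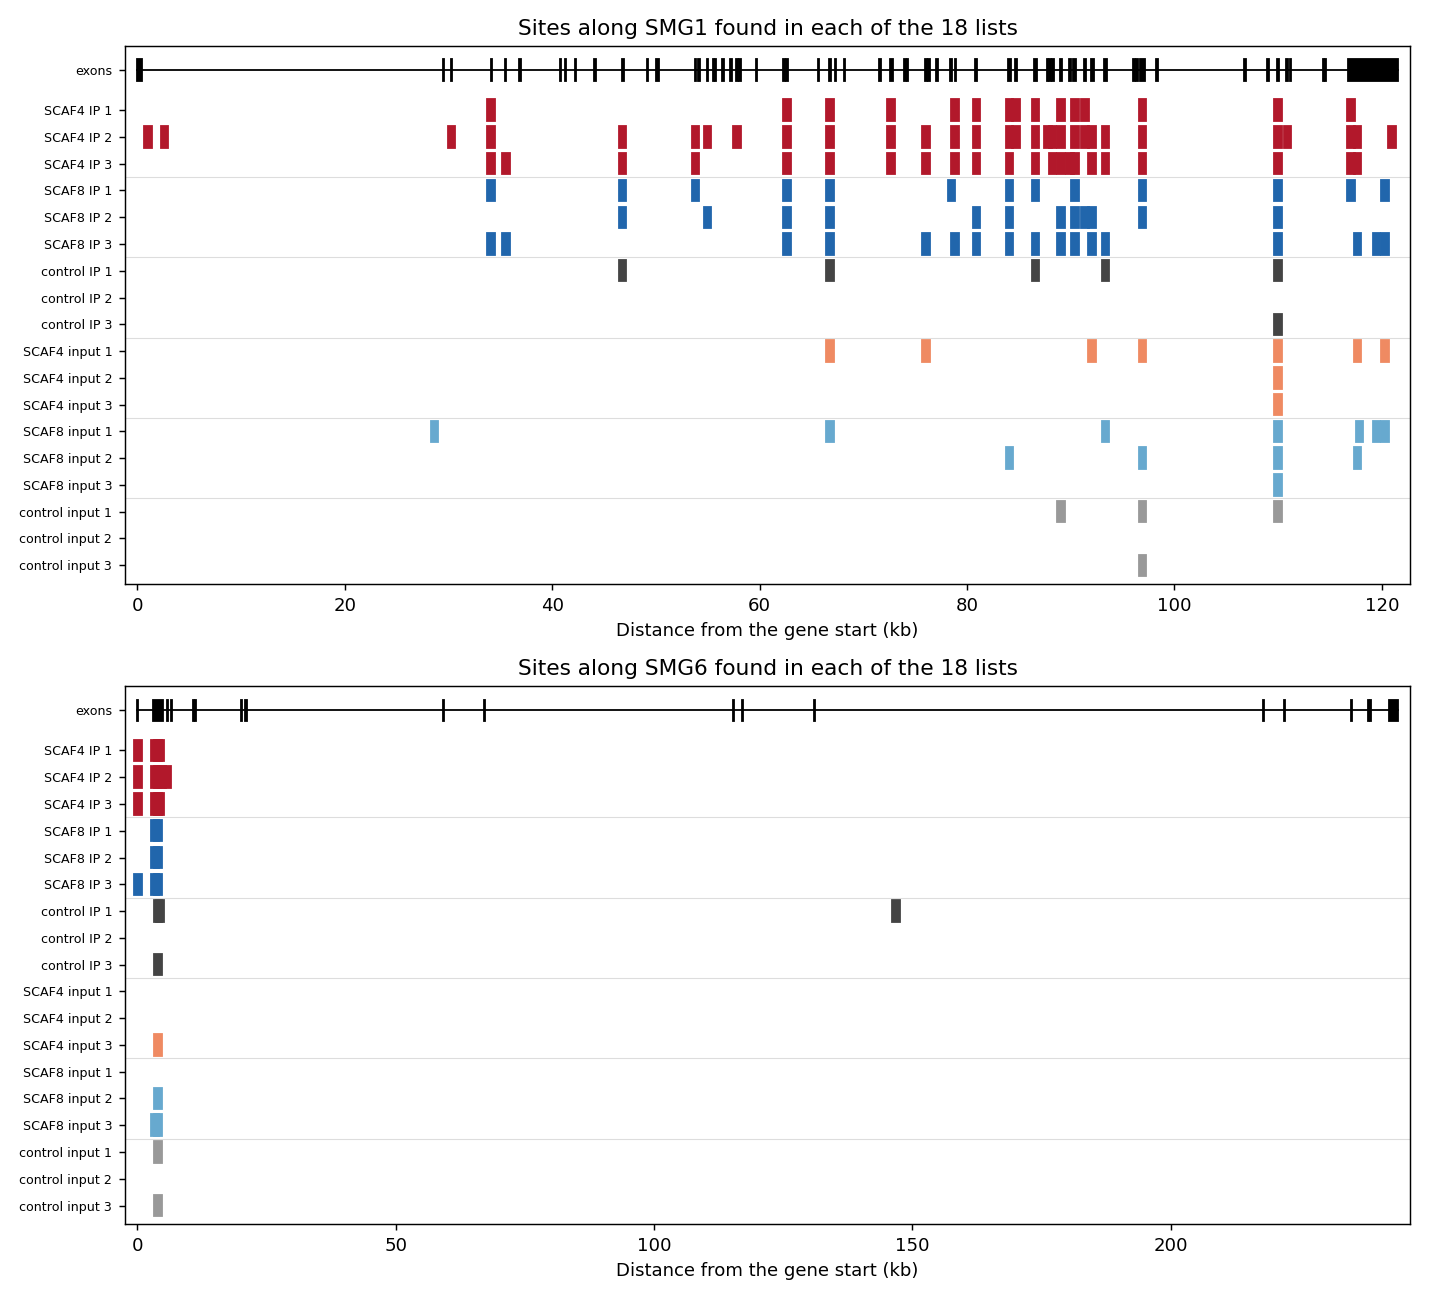
Merged sites along SMG1 (top) and SMG6 (bottom), with distance from the gene start in kb and 1 row for each of the 18 lists; blocks mark sites that hold a cluster of that list and black boxes are exons, both drawn at a minimum width. Sites of SMG1 run over its exons to the last, while the SCAF4 and SCAF8 IP sites of SMG6 lie within 5856 nt of the start.

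SMG5 had 22 sites and the largest share of them over splice sites, 17 of 22, with 11 spanning both a 5′ and a 3′ splice site. These counts also set no minimum overhang past the exon. The exon 3 site (chr1:156277891-156278089) and the exon 14 site (chr1:156261318-156261412) were each in 2 SCAF4 IP and 2 SCAF8 IP lists and no other, and each spanned its whole exon. The 609 nt exon 12 site (chr1:156265771-156266379) was in all 6 SCAF4 and SCAF8 IP lists, 1 control IP list and 6 inputs. An intronic site (chr1:156264313-156264457) was in 3 SCAF4 IP lists and 1 SCAF8 IP list only. The 1705 nt site over the 3′ UTR and gene end was in all 6 SCAF4 and SCAF8 IP lists and also in control IP and inputs. SMG9 had 15 sites with a SCAF4 or SCAF8 IP cluster, 8 of them intronic, the largest intronic share of the 8 genes. The intronic site in the most lists, in 3 SCAF8 IP lists and 1 SCAF4 IP list and no other, was at chr19:43736325-43736634. A 3′ UTR site (chr19:43731164-43731533) was in 2 SCAF4 IP and 3 SCAF8 IP lists and in 2 inputs. The 3 sites of SMG8 lay in its coding exons, and the one in most lists (chr17:59213162-59213471) was in 2 SCAF4 IP lists, 1 SCAF8 IP list and 2 inputs. Other genes overlap SMG6 and SMG8 on the same strand, so a cluster there can count for both genes.

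Over the 8 genes, 116 sites had a SCAF4 or SCAF8 IP cluster and 82 of them, 70.7%, had none in input or control IP, close to the 70.2% of the 65585 such sites in all protein-coding genes. Of the 116, 16 were in at least 4 of 6 SCAF4 and SCAF8 IP lists and in no input or control IP list, where 7.16% of all such sites were. SMG1 held 6 of them, SMG5 5, UPF2 2, and UPF1, SMG6 and SMG9 1 each. The SMG1 count, and with it the 16, is uncertain, because its exon 4 and exon 25 sites have copies in SMG1 pseudogenes. SCAF4 IP had 104 sites and SCAF8 IP 73, and 61 were in both, which is 83.6% of the SCAF8 IP sites and 58.7% of the SCAF4 IP sites. Over all protein-coding genes these shares were 67.6% and 54.0%.

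The midpoint was exonic for 88.8% ± 5.1 (SD, n = 6 lists) of the members' SCAF4 and SCAF8 IP clusters, beside a mean of 65.0% over all protein-coding genes in the same lists. The members' inputs were as exonic, at 94.4% ± 8.4 (SD, n = 9). In the canonical isoforms, 235 of the 332 SCAF4 and SCAF8 IP clusters lay in coding sequence, 56 in 3′ UTRs, 41 in introns and 0 in 5′ UTRs. Coding sequence therefore took 70.8% of the IP clusters, where it took 48.0% over all protein-coding genes. Of 76 input clusters, 45 lay in coding sequence and 27 in 3′ UTRs, 35.5% against 16.9% in IP, and over all protein-coding genes 3′ UTRs also took a larger share of the input clusters, 14253 of 60294 against 21817 of 167260 in IP. A splice site was spanned by 35.9% of the members' SCAF4 and SCAF8 IP clusters on average (24.3% to 49.5% between lists) and by 15.2% of their input clusters (0% to 33.3%). Over all protein-coding genes the means were 31.2% and 14.5%. How far these clusters reached past the exon was not compared.

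Consensus clusters were built by rules modelled on those of the study, to see how many the members keep, and the study's own sets were not used here. Genome-wide they gave 10543 SCAF4 and 5540 SCAF8 regions. The study reports more consensus clusters for each protein, so the counts and losses below need not hold in its sets. A region had to be in at least 2 of 3 replicates, or 2 of 6 when SCAF4 and SCAF8 IP were pooled. A region was dropped if clusters from at least 2 of the 9 inputs touched it, if its gene, with 2 kb flanks, had merged input regions at a density of 1 per 10 kb or more, or if it touched a control IP cluster. All 8 members had a SCAF4 region in at least 2 lists, 64 regions in all, and 13 were left, 7 in UPF1, 4 in UPF2 and 2 in SMG6. For SCAF8, 32 regions became 5, with 2 in UPF1, 2 in UPF2 and 1 in SMG6. In the pooled set 77 became 19, with 12 in UPF1, 4 in UPF2, 2 in SMG6 and 1 in UPF3B. Thus 3 of 8 members had a SCAF4 consensus cluster, 3 a SCAF8 one and 4 a pooled one, where 40.9%, 27.2% and 51.8% of the protein-coding genes with a cluster in any list had one.

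The density of input regions decided most removals. SMG5 had 2.39 input regions per 10 kb, SMG8 2.03, SMG9 1.29 and SMG1 1.04, so these 4 members lost every region, where 23.4% of genes with a cluster were at or above the limit. The others were below it, at 0.497 for UPF1, 0.435 for UPF3B, 0.157 for UPF2 and 0.0807 for SMG6. SMG1 lay just above with 13 input regions. Without that step 43 SCAF4 regions were left in 7 members, among them 15 in SMG1 and 10 in SMG5. The counts also turned on single replicates. Without replicate 1, SMG1 had 4 input regions (0.319 per 10 kb) and SMG9 fell to 0.968, and 39 SCAF4 regions were left, 18 of them in SMG1. Without replicate 2, SMG1 lay at 0.956 and had 9 of the 12 SCAF4 regions left, and UPF1 had 1. Without replicate 3, 4 were left in all, 1 of them in UPF1.

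**Figure D4:**
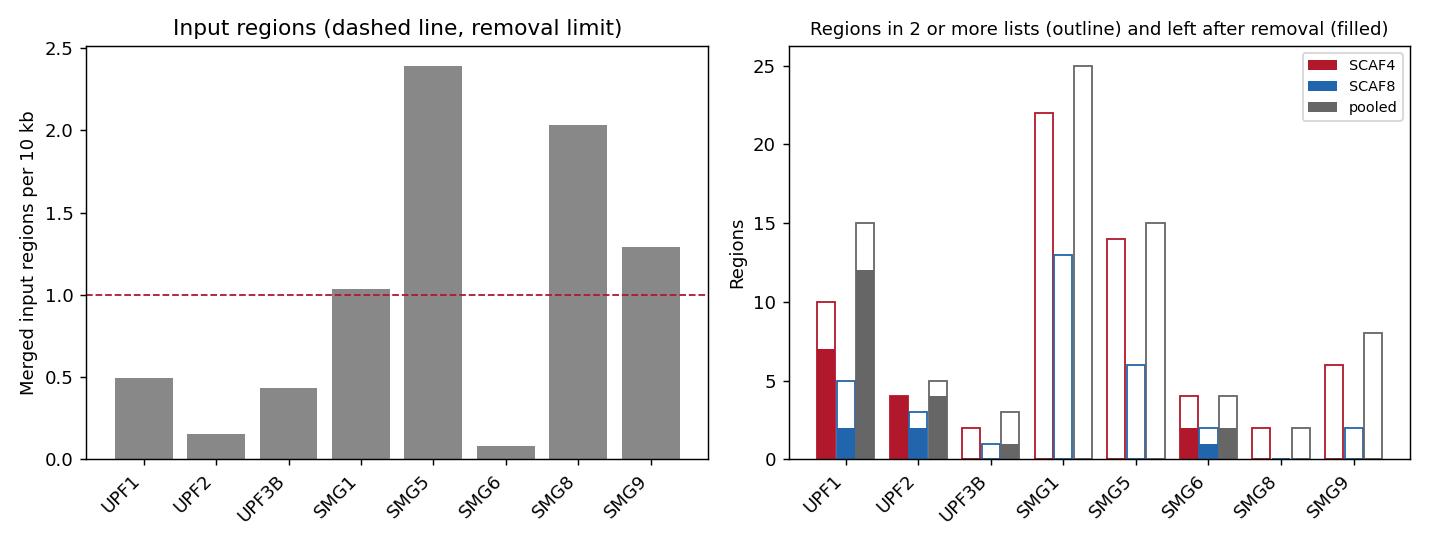
Left, merged input regions per 10 kb of each member and its 2 kb flanks, with the removal limit of 1 as a dashed line. Right, regions in 2 or more SCAF4 IP, SCAF8 IP or pooled lists (outlined bars) and those left as consensus clusters (filled bars); SMG1, SMG5, SMG8 and SMG9 lie above the limit and have none left, and UPF1 has 7, 2 and 12.

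Motifs near SCAF4 and SCAF8 sites were counted on the transcribed strand only, in the 100 nt around the midpoint of each site, with letters that 2 motifs share counted for both. UPF1 had CGG or CGA at all 23 of its sites and SMG1 at 23 of 35. Over the members it was in 77.6% of the members' 116 sites and in 64.2% of all 65585 sites. A motif of the second group was in 55.2% of the members' sites, where 43.0% of all sites held it, and CTCC or CACC in 51.7%, where 48.0% did. The windows were 57.6% G or C in UPF1, 44.4% in SMG1, 50.1% in the members together and 49.0% over all sites. Because the study drew these motifs from the same experiments, their shares here are not an independent test of them. Whether base content or splice-site sequence bears on the motif shares was not tested. In the members and over all sites, T made up 24.0% and 25.3%. Among members T ranged from 19.7% in SMG6 to 29.7% in UPF2.

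Some SMG1 positions cannot be told from their copies. Of the 37 SMG1 sites, 12 aligned over at least 80% of their length, with at least 90% identity, to an SMG1 pseudogene, 4 of them with 100% identity. All 12 lay within 66776 nt of the gene start, and they include the exon 4 and exon 25 sites, so clusters there are uncertain. At the other sites SMG1 kept 12, 20 and 17 clusters in SCAF4 IP, 8, 8 and 13 in SCAF8 IP, 3, 0 and 1 in control IP and 0 to 6 in the inputs. Clusters were also listed in 7 of 9 annotated SMG1 pseudogenes, 21 to 216 per pseudogene over the 18 lists. Of the other members, 1 UPF3B and 1 SMG9 site had a like match elsewhere, and UPF1, UPF2, SMG5, SMG6 and SMG8 had none.

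Further genes of the pathway, 16 in all, included exon junction factors such as RNPS1, CASC3 and EIF4A3 and the release factors ETF1 and GSPT1. Against own inputs, per 10000 clusters, 0 of the 16 were called higher by the exact permutation test, where 5.95% of all genes were. At an unadjusted p below 0.05, 3 were higher, where 21.7% of all genes were. RNPS1 was 0.69 ± 0.15 (SE) lower on the log2 scale (adjusted p = 0.0278, exact permutation test), where 3.57% of all genes were called lower. It was higher in plain number, with a mean of 15.8 clusters per IP list and 7.5 per input (adjusted p = 0.0164, exact permutation test). Paired by extract no gene was called. GSPT1 was 0.79 ± 0.26 (SE) lower per 10000 clusters (p = 0.0130, adjusted p = 0.0677, exact permutation test). The median difference of the 16 was 0.31 on the log2 scale. In the 6 SCAF4 and SCAF8 IP lists RNPS1 had 95 clusters, GSPT1 63, CASC3 40, ETF1 40 and EIF4A3 35. RNPS1 had 8.30 input regions per 10 kb, GSPT1 4.43 and CASC3 1.12, and none of these 3 kept a consensus cluster. A pooled consensus cluster was left in 10 of the 16, where 51.8% of the protein-coding genes with a cluster in any list had one.

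By pattern over the 18 lists, on log2(clusters per 10000 + 1), the 5 protein-coding genes most like UPF1 among 3514 with a cluster in at least 9 lists were CEP72 (Pearson's r = 0.78), RBM28 (0.76), CDC45 (0.75), MCM10 (0.74) and STRN4 (0.72). The other members had r between -0.10 for SMG5 and 0.38 for SMG6. All these values share the 18 lists and their lengths and are a description.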

How the data were processed

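PAR-CLIP of FLAG-SCAF4, FLAG-SCAF8 and parental Flp-In T-REx HEK293 cells gave 36 libraries, which the authors trimmed (Trim Galore, cutadapt), aligned to GRCh38 with Bowtie2 2.2.9, a tool that does not align across splice junctions, and passed to PARalyzer after joining the soluble and chromatin fractions, which left 18 cluster lists. Reads of replicate 1 were longer. The deposited lists give each cluster's position and strand and an unnamed score between 0.5 and 1, and the clusters passed the authors' minimum numbers of reads and T-to-C conversions. They hold no read counts, so depth and counting intervals are unknown and list length was the only scale.

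Clusters were assigned by midpoint and strand to GENCODE 44 genes (Python 3.11.15, pandas 2.3.3, scipy 1.17.1). The mean of log2(clusters per 10000 + 1) was compared by two-sided exact permutation tests with Benjamini-Hochberg adjustment over protein-coding genes with a cluster in at least 3 of the lists compared. The unpaired exact test of SCAF4 and SCAF8 IP against own inputs was tried on counts simulated without correlation between lists. The other steps were not simulated. Groups followed the sample labels. Per the labels, input was taken from the extract before the IP, so IP and own input lists were also compared as pairs by replicate number, whose deviations from the group means correlated at 0.03 to 0.33. Named genes were the 8 members, their site in the most SCAF4 and SCAF8 IP lists, the 6 other pathway genes with the most clusters in those lists, of which 1 is not reported here, and the 5 genes most like UPF1. All other sites were named after their values were seen. Exons, coding sequence and UTRs followed the Ensembl canonical isoform, an alternative to the longest isoform chosen after seeing the annotation. Sequence came from the GRCh38 genome, and copies of sites were sought with BLAST 2.17.0. Alternatives were another pseudocount, other filters, plain numbers, covered nucleotides, a score limit, other consensus rules, a replicate block and leaving out each replicate. The members and gene lists were chosen with earlier results of these data known.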

Additional observations from a re-analysis of the deposited data

Results flagged for a closer look

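Beyond the end of SMG5, outside the gene body used for the counts, 11 clusters of the SCAF4 and SCAF8 IP lists lay within 2 kb downstream on the same strand, where the control IP lists had 0. The SCAF4 IP lists held 0, 3 and 2 and the SCAF8 IP lists 2, 1 and 3. The control input lists held 1, 1 and 0, and the other inputs 0. Per 10000 clusters the mean was 0.534 in the 6 SCAF4 and SCAF8 IP lists, 0 in control IP and 0.332 over the 9 inputs. The midpoints lay 70 to 1719 nt below the annotated gene end, and 1 of them was inside the neighbouring gene PAQR6. The difference was not tested, and the control IP lists are the shortest.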

How the results depend on the processing

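Of 69 recomputed values that answer a comparison, 46 stayed within the limits for no change (1.5 times a count, or the spread between lists) and 23 moved. Of 232 values for single members, 214 kept their side of the threshold (19 of them with the sign turned but no call), 17 passed it and 1 changed sign past the limit: SMG9 in SCAF4 IP against SCAF8 IP went from -0.10 to 0.27 without replicate 1 (-0.37 to 0.27 over the replicates left out), and the cause was not tested. The number of members higher than own inputs was 0 as reported, 5 in plain number and 1 in covered nucleotides (UPF2, adjusted p = 0.0258, exact permutation test). Of all genes, 39.6% and 10.2% were called on these 2 alternative scales, counting calls in either direction. Against control IP it was 3 in plain number, where 25.1% of all genes were called. Members with all SCAF4 IP lists on one side of all SCAF8 IP lists numbered 1 in plain number (SMG6, 5.34% of all genes), 1 in covered nucleotides (UPF3B, 17.9% of all genes) and 2 to 3 with a replicate left out, where each side has only 2 lists and 32.7% to 48.2% of all genes separate. SCAF4, SCAF8 and pooled consensus clusters in the members numbered 3, 1 and 10 when all 3 replicates, or 3 of 6 lists, were required, and 43, 17 and 55 without removal by input density. Leaving out a replicate gave 4 to 39, 2 to 16 and 10 to 52. In 50 nt windows the 3 motif groups were in 54.3%, 31.0% and 31.0% of the members' sites, and in 45.4%, 24.1% and 27.9% of all sites. With the replicate number as a block, 0 members were called against own inputs on either scale (smallest adjusted p over all genes 0.197 per 10000 clusters and 0.128 in plain number, the latter added after seeing the data, exact permutation tests), and 0 members lay one way in all 3 pairs of SCAF4 IP against SCAF8 IP, as 33.5% of genes did. SCAF4 IP and SCAF8 IP lists share only a number, with correlated deviations of -0.04 to 0.30, and 1 of 3 correlated best with its own. Leaving out any replicate number left 0 genes called against own inputs. With fewer lists the smallest p that the exact test can give is larger, so these 0 calls cannot show what a replicate contributes. Depth is unknown, and short control IP lists limit every comparison with them.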
